A study of Mus musculus with 10 samples.

Results

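TSA-treated T helper 2 (Th2) cultures were set against splenic CD4 T cells to ask which genes remained changed from CD4 T cells when trichostatin A (TSA) had been in the culture. The comparison used 4 of the 10 RNA-seq libraries of the series, 2 of TSA-treated cultures and 2 of CD4 T cells, and the 2 libraries of untreated Th2 cultures stood beside them. It covered 12367 of the 19025 genes in the files, after genes at 0 FPKM in all 4 Th2 files or in all 6 other files, and genes with low values, were left out. All groups were from C57BL/6 mice with no genetic modification named. The TSA-treated group was splenic CD4 T cells kept for 5 days with interleukin 2 at 15 ng/ml and interleukin 4 at 10 ng/ml, with 10 nM TSA added on day 2 and left for 3 days. The untreated Th2 group had the same 5 days and cytokines without TSA. The CD4 T cell group was splenic cells of mice aged 6 to 8 weeks, enriched on magnetic beads to a labelled purity above 98%. Each culture library is a whole culture, so a lower value cannot be told apart as fewer cells of a type or less RNA per cell.

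Naive CD4 T cells circulate in a resting state held by transcription factors such as TCF7, KLF2 and FOXO1. When activated in interleukin 4 they divide, switch to glycolysis, and acquire the Th2 programme through STAT6 and GATA3, which includes the cytokine genes Il4, Il5 and Il13. TSA blocks the zinc-dependent histone deacetylases, enzymes that remove acetyl groups from histones and other proteins, and is known to raise some silent genes and to slow cell division.

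The promoters of 2 groups of genes that the results below turn on are shown here because most tested members of each group were called in the same direction against CD4 T cells. They are RefSeq sequences of the GRCm38.p6 build, from 250 bases before to 50 bases after the annotated start, written 5′ to 3′ on the gene's strand. Capitals mark GAAANNGAA on either strand, the core letters of an interferon-stimulated response element, in the interferon-inducible GTPase genes Gbp2 at chr3:142620413-142620712 on the plus strand and Gbp5 at chr3:142496684-142496983 on the plus strand.
Gbp2: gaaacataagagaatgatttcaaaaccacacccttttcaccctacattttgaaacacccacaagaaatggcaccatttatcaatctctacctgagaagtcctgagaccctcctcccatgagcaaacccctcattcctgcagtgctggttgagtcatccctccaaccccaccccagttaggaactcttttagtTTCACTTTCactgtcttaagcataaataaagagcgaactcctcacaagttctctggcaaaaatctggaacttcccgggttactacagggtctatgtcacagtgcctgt
Gbp5: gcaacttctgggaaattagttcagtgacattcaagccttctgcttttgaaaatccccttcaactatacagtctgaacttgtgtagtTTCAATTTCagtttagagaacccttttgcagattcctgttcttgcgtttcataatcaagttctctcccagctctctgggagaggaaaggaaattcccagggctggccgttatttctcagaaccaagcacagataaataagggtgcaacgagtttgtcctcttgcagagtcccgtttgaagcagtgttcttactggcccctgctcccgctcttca
In the mitotic genes Ccnb2 at chr9:70421505-70421804 on the minus strand, Cdc20 at chr4:118437294-118437593 on the minus strand and Plk1 at chr7:122159185-122159484 on the plus strand, capitals mark CCAAT and TTTGAA, the letters bound by NF-Y and the cell cycle homology region, on the strand shown.
Ccnb2: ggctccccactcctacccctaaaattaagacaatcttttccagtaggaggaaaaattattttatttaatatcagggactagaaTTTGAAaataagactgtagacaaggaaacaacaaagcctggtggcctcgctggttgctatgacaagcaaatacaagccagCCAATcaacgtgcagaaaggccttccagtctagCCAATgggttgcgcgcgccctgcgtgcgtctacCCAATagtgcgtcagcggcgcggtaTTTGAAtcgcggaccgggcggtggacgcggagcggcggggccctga
Cdc20: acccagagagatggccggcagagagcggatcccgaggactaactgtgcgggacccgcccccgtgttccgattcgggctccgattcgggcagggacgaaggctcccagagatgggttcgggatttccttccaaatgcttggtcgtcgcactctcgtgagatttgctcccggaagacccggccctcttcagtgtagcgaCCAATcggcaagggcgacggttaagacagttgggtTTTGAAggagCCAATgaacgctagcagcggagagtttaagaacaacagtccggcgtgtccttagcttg
Plk1: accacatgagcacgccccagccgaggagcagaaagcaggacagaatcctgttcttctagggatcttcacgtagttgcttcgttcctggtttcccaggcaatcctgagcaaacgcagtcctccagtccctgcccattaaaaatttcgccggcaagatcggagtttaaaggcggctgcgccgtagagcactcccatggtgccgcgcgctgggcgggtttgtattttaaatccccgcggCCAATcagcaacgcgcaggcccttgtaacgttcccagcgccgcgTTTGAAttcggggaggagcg
Both strands were searched. Promoters were matched for 10 of the 19 interferon GTPase genes, and GAAANNGAA was in 9 of them (90%), against 8.57% of the first promoters of 27025 genes. For mitosis 25 of 30 genes were matched, and CCAAT was in 21 (84%) and TTTGAA in 20 (80%), against 37.9% and 18.1% of the first promoters of all genes. CCAAT was also in 14 of 15 matched promoters of cholesterol genes (93.3%) and in 14 of 24 of DNA replication genes (58.3%), and TTTGAA was in 1 (6.67%) and 4 (16.7%) of them. A match describes letters in the window and is not evidence of binding.

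Expression was deposited as FPKM, fragments scaled to transcript length and to all mapped reads, so read numbers behind the values are unknown and counting error could not be given. Between 9652 and 11456 genes reached 1 FPKM in a library. The 2 CD4 T cell libraries differed far less than the 2 TSA-treated libraries (SD of their log2 ratio 0.0776 against 0.36). Read sampling alone would imply 1 depth at every expression level. The depth implied by the spread varied 1.31-fold over levels for the CD4 T cell pair and 12.9-fold for the TSA-treated pair. The mean of the CD4 T cell pair was therefore counted as 1 sample. The ES cell and B cell pairs of the series were treated in the same way, which left 7 samples for limma's moderated test on log2(FPKM + 1). Its spread came from the 2 pairs of cultures, and the CD4 T cell sample was assumed to vary like them. The labels do not say whether the culture pairs came from separate animals, so p-values measure only the spread between these samples. A log2 difference below is the mean of the first-named group minus that of the second on that scale, which understates the change of genes with low values. The Th2 files repeat 1 value for all transcripts of a symbol and the other files give a value for each transcript, so this difference between kinds of file and the difference between Th2 cultures and CD4 T cells cannot be told apart. Reads were not stated to be counted by strand.

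Most genes that stood far from CD4 T cells in TSA-treated cultures did so in untreated Th2 cultures too. With Benjamini-Hochberg adjusted p under 0.05, 2759 genes (22.3%) were higher and 4817 genes (39.0%) lower in TSA-treated cultures than in CD4 T cells. These shares of all genes are the background for the counts of list members that rose or fell below. With the further demand of a 4-fold difference, 653 genes (5.28%) were higher and 828 (6.7%) lower. Untreated Th2 cultures had 546 genes (4.41%) higher and 970 (7.84%) lower by the same rule. Of the 653 higher genes, 406 (62.2%) also passed the 4-fold rule without TSA, 157 (24.0%) were called higher without TSA by less than 4-fold, and 90 (13.8%) were not called higher without TSA. Of the 828 lower genes, 685 (82.7%) also passed without TSA, 132 (15.9%) were called lower by less than 4-fold, and 11 (1.33%) were not called lower. Both comparisons share the CD4 T cell sample, so these shares describe the genes and test nothing.

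Counted from untreated Th2 cultures, 406 of the 546 higher genes (74.4%) still passed the 4-fold rule with TSA, 127 (23.3%) were called by less, and 13 (2.38%) were no longer called. Of the 970 lower genes, 685 (70.6%) still passed, 250 (25.8%) were called by less, and 35 (3.61%) were no longer called. The median log2 difference from CD4 T cells over all 12367 genes was −0.24 with TSA and −0.28 without it. Quantile normalization moved the first of these to −0.02 and median-ratio scaling to −0.03. The share of higher genes among those past the 4-fold rule was 44.1% as deposited, 54.8% after quantile normalization and 57.2% after median-ratio scaling. Genes called higher and lower with TSA, 2759 and 4817 as deposited, numbered 3555 and 3814 after quantile normalization. Median-ratio scaling gave 3412 and 3673. The background shares used for the lists are those of the values as deposited.

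**Figure D1:**
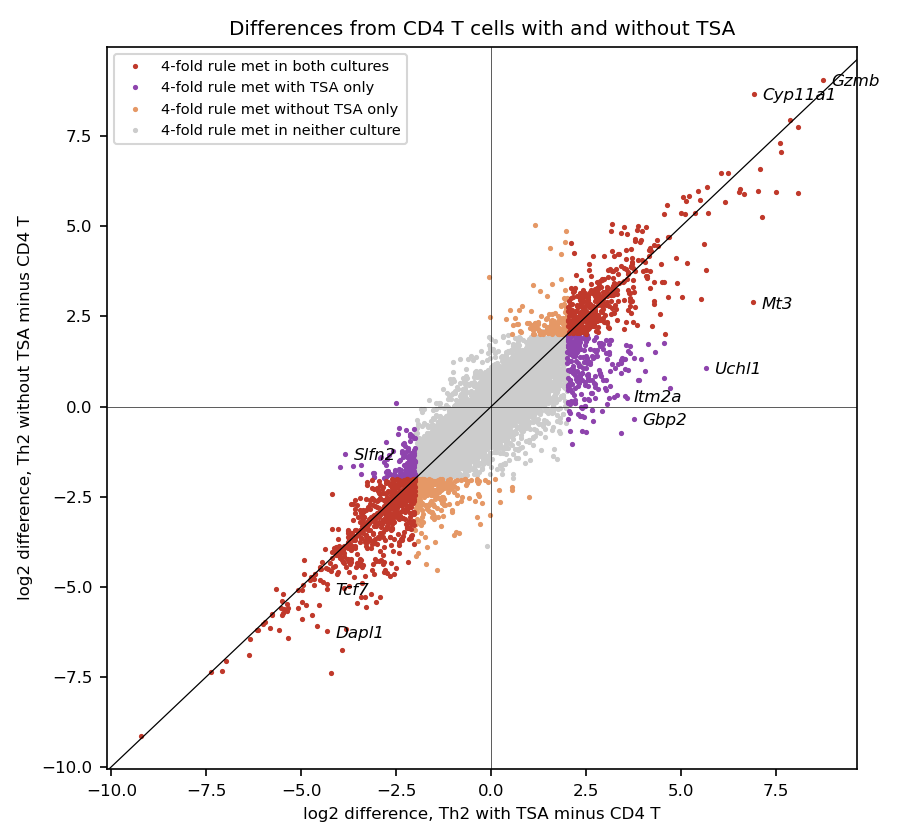
Log2 difference from CD4 T cells in TSA-treated cultures (x axis) against the same difference in untreated Th2 cultures (y axis), each point a gene and colours marking genes past the 4-fold rule in both, in 1 or in neither. The 406 higher and 685 lower genes past the rule in both cultures lie at the ends of the diagonal, and both axes share the CD4 T cell sample.

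TSA-treated cultures were also set directly against untreated Th2 cultures, where 1789 genes (14.5%) were higher and 933 (7.54%) lower. These calls rest on 2 cultures a group. Leaving out either untreated Th2 library left 0 genes called by limma in each direction, with 1900 higher and 1147 lower genes at an unadjusted p under 0.05 without the first and 2037 and 1045 without the second. Leaving out the first TSA-treated library left 491 higher and 36 lower genes called, and leaving out the second left 17 higher and 0 lower, with 2199 and 1040 at an unadjusted p under 0.05. This limit holds for every difference between TSA-treated and untreated Th2 cultures given below. Of the 653 genes higher than in CD4 T cells with TSA, 194 (29.7%) were called higher than in untreated Th2 cultures as well and 48 (7.35%) were called lower. Of the 828 lower genes, 101 (12.2%) were called lower still than in untreated Th2 cultures and 109 (13.2%) were called nearer to CD4 T cells.

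Markers of T cells were present in all groups. Cd4, the co-receptor of helper T cells, had 184 and 162 FPKM in TSA-treated cultures, 135 and 131 FPKM in untreated Th2 cultures and 299 and 299 FPKM in CD4 T cells. Cd3e, a chain of the T cell receptor complex, had 111 and 81.1 FPKM in TSA-treated cultures, 133 and 113 FPKM in untreated Th2 cultures and 243 and 246 FPKM in CD4 T cells. The transcription factor that directs Th2 differentiation, Gata3, had 49 and 49.2 FPKM in TSA-treated cultures, 80.3 and 98.1 FPKM in untreated Th2 cultures and 19.9 and 20.3 FPKM in CD4 T cells. Both kinds of culture stood above CD4 T cells in Gata3 and below them in Cd4 and Cd3e. Thy1, another T cell marker, instead stood above CD4 T cells in both kinds of culture. It had 504 and 668 FPKM with TSA, 704 and 813 FPKM without it and 304 and 306 FPKM in CD4 T cells.

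The CD4 T cell libraries also held transcripts of other blood cells, which the culture libraries held at far lower levels. The summed level of 20 B cell markers was 55.2 and 110.3 FPKM in TSA-treated cultures, 17.9 and 23.5 FPKM in untreated Th2 cultures and 607 and 618 FPKM in CD4 T cells. For 20 myeloid markers it was 21.3 and 25.1 FPKM with TSA, 16.7 and 22.9 FPKM without it and 976 and 961 FPKM in CD4 T cells. That sum includes 5 markers that were not tested because they were at 0 FPKM in all 4 Th2 files. For 10 class II antigen presentation genes it was 245 and 495 FPKM with TSA, 106 and 181 FPKM without it and 2963 and 2960.2 FPKM in CD4 T cells. All 15 tested myeloid markers, 18 of 20 B cell markers and 7 of 10 class II genes fell in TSA-treated cultures, against a background of 39.0% of genes. C1qa and C1qc, complement genes of macrophages, and Csf1r, the receptor of a macrophage growth factor, were each at 0 FPKM in 1 TSA-treated library and at most 0.13 FPKM in the other. The part of these cells in the genes that were lower than in CD4 T cells was not tested. Beside this, 283 of the 828 lower genes (34.2%) had at least as high a mean in the B cell libraries as in CD4 T cells, against 5190 of all 12367 genes (42.0%). That share cannot cover myeloid transcripts, since Tyrobp and C1qa also stood lower in the B cell libraries than in CD4 T cells.

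Against untreated Th2 cultures 8 of 20 B cell markers, 7 of 10 class II genes and 6 of 12 tested CD8 T cell and NK cell markers were higher and none was lower, where 14.5% of all genes were higher. H2-Ab1, a class II chain, had 39.6 and 75.6 FPKM in TSA-treated cultures, 35.1 and 80.5 FPKM in untreated Th2 cultures and 515 and 512 FPKM in CD4 T cells, with the libraries with and without TSA overlapping. The summed level of all 13 listed CD8 T cell and NK cell markers was 60.7 and 61.7 FPKM with TSA, 18.7 and 17.4 FPKM without it and 145 and 144 FPKM in CD4 T cells. H2-Aa, another chain, had 17.6 and 55.4 FPKM in TSA-treated cultures, 1.64 and 3.76 FPKM in untreated Th2 cultures and 594 and 601 FPKM in CD4 T cells. Klrd1, a receptor subunit of NK cells, had 2.73 and 5.19 FPKM in TSA-treated cultures, 0.15 and 0.29 FPKM in untreated Th2 cultures and 47.3 and 46.4 FPKM in CD4 T cells. For H2-Aa and Klrd1 the TSA-treated libraries lay between the untreated Th2 libraries and the CD4 T cell libraries, with no overlap.

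Genes of secreted effector proteins were among the largest rises. Gzmb, the cytotoxic protease granzyme B, had 1246 and 1779.5 FPKM in TSA-treated cultures, 1727 and 2059 FPKM in untreated Th2 cultures and 2.57 and 2.46 FPKM in CD4 T cells. The log2 difference of TSA-treated cultures from CD4 T cells was 8.73 ± 0.26 (SE), adjusted p = 0.00013, and the libraries with and without TSA overlapped. Gzma, granzyme A, had 714 and 1044 FPKM with TSA, 339 and 985 FPKM without it and 3.39 and 3.32 FPKM in CD4 T cells (log2 difference with TSA 7.63 ± 0.67 (SE), adjusted p = 0.0013). Gzmc, another granzyme, had 14.3 and 17.3 FPKM with TSA, 11.8 and 8.32 FPKM without it and 0.79 and 0.81 FPKM in CD4 T cells. Of 14 tested granule and cytotoxic genes of 17, these were the 3 that rose and 6 fell, shares near those of all genes (22.3% and 39.0%). The 6 that fell include Prf1, which encodes the pore-forming protein perforin. Il24, a cytokine of the interleukin 10 family, had 213 and 275 FPKM with TSA, 253 and 259 FPKM without it and 0.01 and 0.06 FPKM in CD4 T cells, a log2 difference with TSA of 7.88 ± 0.19 (SE), adjusted p = 0.00011. Ecm1, a secreted matrix protein that Th2 cells express, had 2262 and 4797 FPKM with TSA, 605 and 1341 FPKM without it and 21.8 and 23 FPKM in CD4 T cells (log2 difference 7.14 ± 0.65 (SE), adjusted p = 0.0014). Both TSA-treated libraries held more Ecm1 than either untreated library, and the test between them did not pass (adjusted p = 0.071).

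**Figure D2:**
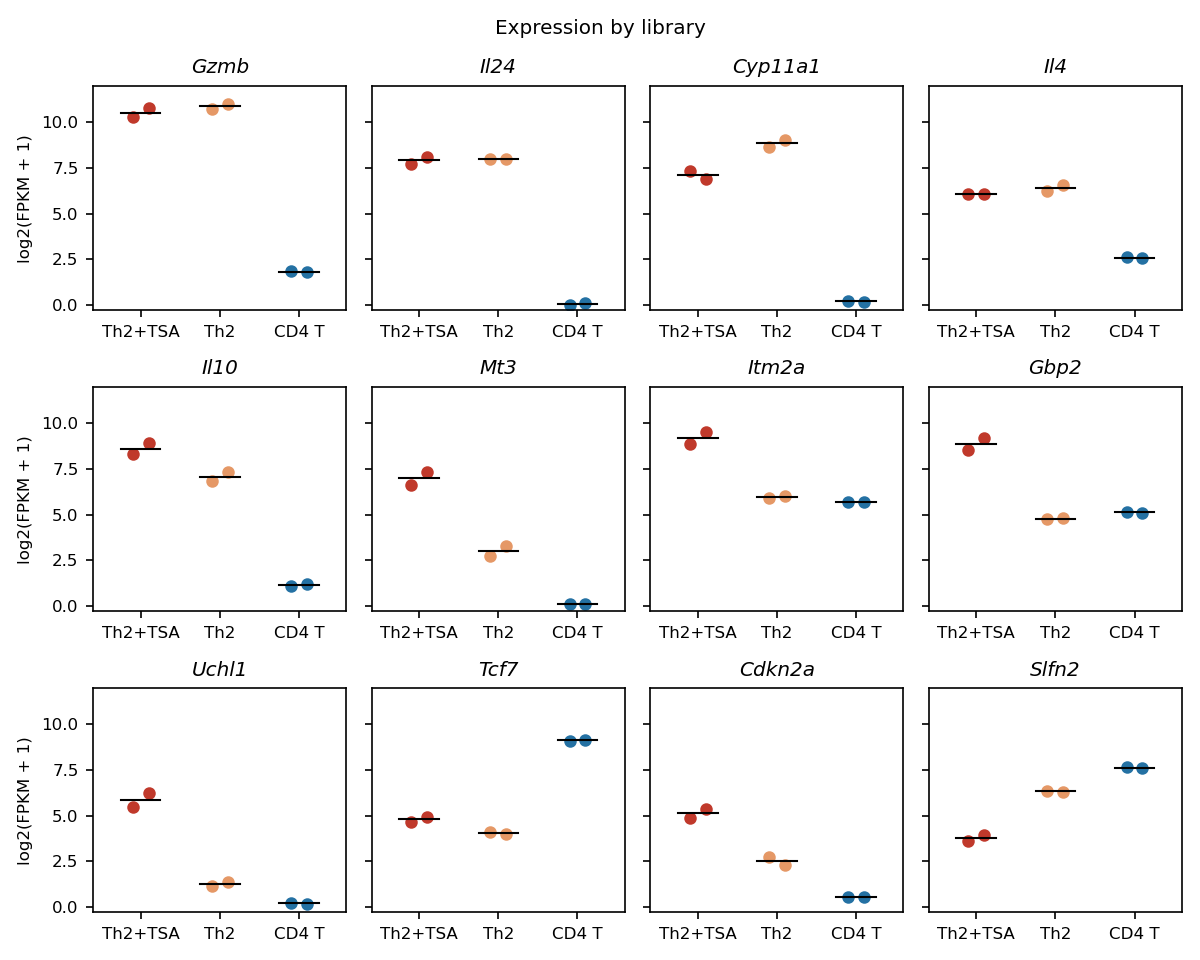
Log2(FPKM + 1) of 12 genes in each library of TSA-treated cultures, untreated Th2 cultures and CD4 T cells, with points for libraries and a line at each group's mean. Gzmb and Il24 are high with and without TSA, Mt3, Itm2a, Gbp2 and Uchl1 are high with TSA, Cdkn2a lies higher with TSA than without, and Tcf7 is low in both cultures.

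Of 19 tested Th2 genes of 21, 14 rose and 2 fell in TSA-treated cultures, and 8 of the 14 passed the 4-fold rule. The median log2 difference of the list from CD4 T cells was 1.60 with TSA and 2.57 without it, against −0.24 and −0.28 over all genes. Il4, the cytokine that defines Th2 cells, had 67.3 and 66.3 FPKM in TSA-treated cultures, 75.4 and 96 FPKM in untreated Th2 cultures and 5.14 and 4.9 FPKM in CD4 T cells (log2 difference from CD4 T cells with TSA 3.49 ± 0.20 (SE), adjusted p = 0.00043). Il13, a cytokine of allergic inflammation, had 8.75 and 25.3 FPKM with TSA, 22.5 and 32.1 FPKM without it and 0.2 and 0.11 FPKM in CD4 T cells. Nfil3, a transcription factor of helper cells, had 161 and 155 FPKM with TSA, 188 and 232 FPKM without it and 2.12 and 2.07 FPKM in CD4 T cells. The Nfil3 libraries with TSA lay below those without it, while the log2 difference between them, −0.40 ± 0.14 (SE), did not pass the test.

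Other Th2 genes stayed above CD4 T cells at a lower level with TSA. Il5, the growth factor of eosinophils, had 3.92 and 2.08 FPKM in TSA-treated cultures, 23.1 and 22.8 FPKM in untreated Th2 cultures and 0.01 and 0.02 FPKM in CD4 T cells. Its log2 difference with TSA was 1.94 ± 0.30 (SE), adjusted p = 0.0058 from CD4 T cells and −2.62 ± 0.25 (SE), adjusted p = 0.0093 from untreated Th2 cultures. Cyp11a1, the enzyme that opens steroid synthesis, had 159.6 and 117 FPKM in TSA-treated cultures, 406 and 534 FPKM in untreated Th2 cultures and 0.16 and 0.13 FPKM in CD4 T cells, and its log2 difference from untreated Th2 cultures was −1.76 ± 0.22 (SE). Il4ra, the interleukin 4 receptor chain, had 149 and 149 FPKM with TSA, 292 and 327 FPKM without it and 51 and 51.8 FPKM in CD4 T cells. Stat6, which carries the interleukin 4 signal, was instead below CD4 T cells in both kinds of culture. It had 24.7 and 22.5 FPKM with TSA, 39.3 and 48.2 FPKM without it and 77.5 and 77.7 FPKM in CD4 T cells. Against untreated Th2 cultures 8 genes of the list were lower and 1 was higher, where 7.54% of all genes were lower and 14.5% higher. The higher one was Il10, an anti-inflammatory cytokine, with 316 and 486 FPKM in TSA-treated cultures, 114 and 159 FPKM in untreated Th2 cultures and 1.1 and 1.27 FPKM in CD4 T cells (log2 difference from CD4 T cells 7.49 ± 0.34 (SE), adjusted p = 0.00029).

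Genes of other helper lineages moved in both directions. Of 16 tested genes of 20, 4 rose and 7 fell relative to CD4 T cells, shares near those of all genes (22.3% and 39.0%). Against untreated Th2 cultures 7 were higher and none lower, where 14.5% of all genes were higher. Il12rb2, the signalling chain of the interleukin 12 receptor of Th1 cells, had 81.9 and 63 FPKM in TSA-treated cultures, 18.5 and 12.1 FPKM in untreated Th2 cultures and 5.7 and 5.95 FPKM in CD4 T cells (log2 difference from CD4 T cells 3.42 ± 0.31 (SE), adjusted p = 0.0013). Its exons overlap Serbp1 on the opposite strand. Bcl6, the regulator of follicular helper cells, had 0.61 and 0.66 FPKM in TSA-treated cultures, against 13.3 and 12.8 FPKM in CD4 T cells. Il18r1, an interleukin 18 receptor chain, had 3.69 and 4.52 FPKM in TSA-treated cultures, against 31.4 and 31.2 FPKM in CD4 T cells. Ccr6, a receptor of Th17 and B cells, was at 0 FPKM in both TSA-treated libraries, against 9.73 and 10.4 FPKM in CD4 T cells, and the B cell libraries held 80.1 and 80.1 FPKM.

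Of 11 regulatory T cell genes, 5 rose and 4 fell, where 22.3% of all genes rose and 39.0% fell. Foxp3, the master regulator of that lineage, had 0.62 and 1.16 FPKM in TSA-treated cultures, 0.56 and 1.12 FPKM in untreated Th2 cultures and 30.5 and 30.9 FPKM in CD4 T cells (log2 difference with TSA −4.08 ± 0.27 (SE), adjusted p = 0.00063), and it overlaps Ccdc22 on the opposite strand. Ikzf2, the transcription factor Helios, had 1.23 and 1.41 FPKM with TSA, 0.21 and 0.18 FPKM without it and 13.5 and 13.8 FPKM in CD4 T cells. Il2ra, the high-affinity interleukin 2 receptor chain also raised by activation, had 372 and 249 FPKM with TSA, 718 and 646 FPKM without it and 20.2 and 19.9 FPKM in CD4 T cells. Nrp1, a co-receptor, had 11.7 and 7.46 FPKM with TSA, 0.43 and 0.2 FPKM without it and 12 and 11.4 FPKM in CD4 T cells, with 1 TSA-treated library within the CD4 T cell values, the other below them, and both untreated Th2 libraries far lower.

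Of 19 tested activation receptors of 20, 10 rose and 5 fell. Tnfrsf8, the receptor CD30, had 199.7 and 179.9 FPKM with TSA, 202 and 243 FPKM without it and 1.28 and 1.74 FPKM in CD4 T cells (log2 difference with TSA 6.25 ± 0.17 (SE), adjusted p = 0.00012). Icos, a costimulatory receptor, had 262 and 227 FPKM with TSA, 262 and 214 FPKM without it and 31.4 and 31.5 FPKM in CD4 T cells. Both were above CD4 T cells with and without TSA, with log2 differences between TSA-treated and untreated cultures of −0.22 ± 0.14 (SE) and 0.04 ± 0.15 (SE), neither past the test. Havcr2, the inhibitory receptor TIM-3, had 9.88 and 8.37 FPKM with TSA, 1.14 and 0.66 FPKM without it and 10.8 and 11.2 FPKM in CD4 T cells, so its TSA-treated libraries lay just below CD4 T cells and well above untreated Th2 cultures. Among 22 genes of T cell receptor signalling 17 fell and 2 rose, with a median log2 difference of −1.05 with TSA and −0.84 without it. Cd6, a receptor that tunes T cell receptor signals, had 33 and 38.8 FPKM in TSA-treated cultures, against 164 and 163 FPKM in CD4 T cells, the 1 gene of the list past the 4-fold rule.

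Nearly all cell division genes stayed above CD4 T cells with TSA. All 29 tested genes of DNA replication rose (of 30 listed), 15 of them past the 4-fold rule, with a median log2 difference of 2.04 with TSA and 2.18 without it. Of 30 mitotic genes 29 rose and 24 passed the 4-fold rule, with medians of 2.34 and 2.96. Rrm2, a subunit of the enzyme that makes deoxynucleotides, had 156 and 126 FPKM in TSA-treated cultures, 231 and 189.5 FPKM in untreated Th2 cultures and 15.3 and 13.9 FPKM in CD4 T cells (log2 difference from CD4 T cells 3.17 ± 0.20 (SE), adjusted p = 0.00059). Ccnb1, the cyclin that drives entry into mitosis, had 47.4 and 38.5 FPKM in TSA-treated cultures, 85.7 and 72.6 FPKM in untreated Th2 cultures and 2.07 and 2.26 FPKM in CD4 T cells (log2 difference 3.79 ± 0.20 (SE), adjusted p = 0.00036). Birc5, survivin, had 193 and 183 FPKM with TSA, 197 and 201 FPKM without it and 15.3 and 14.1 FPKM in CD4 T cells. The remaining mitotic gene, the centromeric histone Cenpa, had 59.5 and 54.1 FPKM with TSA, 112 and 115 FPKM without it and 47.2 and 45.6 FPKM in CD4 T cells, and its difference from CD4 T cells with TSA did not pass the test (log2 difference 0.29 ± 0.13 (SE), adjusted p = 0.11).

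Against untreated Th2 cultures 11 of the 30 mitotic genes and 8 of the 29 replication genes were lower and none was higher, where 7.54% of all genes were lower. The other 19 mitotic genes did not pass the test. Cdc20, an activator of the anaphase-promoting complex, had 37.1 and 25.2 FPKM in TSA-treated cultures, 70.0 and 64.6 FPKM in untreated Th2 cultures and 7.31 and 7.53 FPKM in CD4 T cells, and its log2 difference from untreated cultures was −1.11 ± 0.21 (SE). Plk1, a mitotic kinase, had 32.1 and 23.3 FPKM with TSA, 57.8 and 55.6 FPKM without it and 5.74 and 5.03 FPKM in CD4 T cells. The promoters of both are printed above with their CCAAT and TTTGAA letters. The cyclin-dependent kinase inhibitors, which hold back the cycle, were mostly higher than in CD4 T cells: 4 of 6 tested rose and 1 fell. Cdkn1a, the inhibitor p21, had 171 and 220.2 FPKM in TSA-treated cultures, 111 and 169 FPKM in untreated Th2 cultures and 1.14 and 1.02 FPKM in CD4 T cells (log2 difference from CD4 T cells 6.55 ± 0.31 (SE), adjusted p = 0.0003). Cdkn2a, which encodes p16 and p19, had 28.4 and 40.6 FPKM in TSA-treated cultures, 5.79 and 4 FPKM in untreated Th2 cultures and 0.44 and 0.47 FPKM in CD4 T cells, and its log2 difference was 4.59 ± 0.31 (SE), adjusted p = 0.00068 from CD4 T cells and 2.58 ± 0.26 (SE), adjusted p = 0.01 from untreated cultures.

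Of 24 glycolytic genes 13 rose, 2 fell and 9 were not called, with a median log2 difference of 1.25 with TSA and 1.93 without it. Tpi1, triosephosphate isomerase, had 217 and 196 FPKM with TSA, 488 and 709 FPKM without it and 17.8 and 17.2 FPKM in CD4 T cells. Pgk1, phosphoglycerate kinase, had 647 and 602 FPKM with TSA, 949 and 1189 FPKM without it and 18.9 and 17.2 FPKM in CD4 T cells. Pfkl, a phosphofructokinase, had 22.3 and 20.9 FPKM with TSA, 54.5 and 84.6 FPKM without it and 17.3 and 16.9 FPKM in CD4 T cells, so its TSA-treated libraries lay near CD4 T cells. Pgk1, Tpi1 and other glycolytic genes have processed pseudogene copies that can share reads, and their low values in CD4 T cells are uncertain for that reason.

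Of 22 tested cholesterol genes of 23, 15 rose and none fell relative to CD4 T cells. Relative to untreated Th2 cultures 14 were lower and none higher, where 7.54% of all genes were lower and 14.5% higher. The median log2 difference from CD4 T cells was 0.87 with TSA and 1.63 without it. Idi1, an isomerase of the pathway, had 32 and 29.8 FPKM in TSA-treated cultures, 56.9 and 58.8 FPKM in untreated Th2 cultures and 1 and 1.04 FPKM in CD4 T cells (log2 difference from CD4 T cells 3.98 ± 0.15 (SE), adjusted p = 0.00019). Insig1, a sterol sensor that restrains the pathway, had 18.3 and 14.4 FPKM in TSA-treated cultures, 69.5 and 70.7 FPKM in untreated Th2 cultures and 11.8 and 12.4 FPKM in CD4 T cells. Insig1 in TSA-treated cultures did not pass the test against CD4 T cells, and its log2 difference from untreated Th2 cultures was −2.04 ± 0.15 (SE). Among 23 genes of amino acid transport and serine synthesis, 11 rose, 1 fell and 11 were not called against CD4 T cells, and 14 were lower and none higher than without TSA. Asns, asparagine synthetase, had 17.8 and 13.4 FPKM with TSA, 44.1 and 41.3 FPKM without it and 0.56 and 0.53 FPKM in CD4 T cells. Mthfd1l, a mitochondrial folate enzyme, had 14.7 and 9.2 FPKM with TSA, 42 and 42.2 FPKM without it and 16.3 and 16.8 FPKM in CD4 T cells, and its TSA-treated libraries lay below those of both other groups. Of 20 tested ribosome biogenesis genes of 21, 5 rose and none fell, where 22.3% of all genes rose and 39.0% fell.

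**Figure D3:**
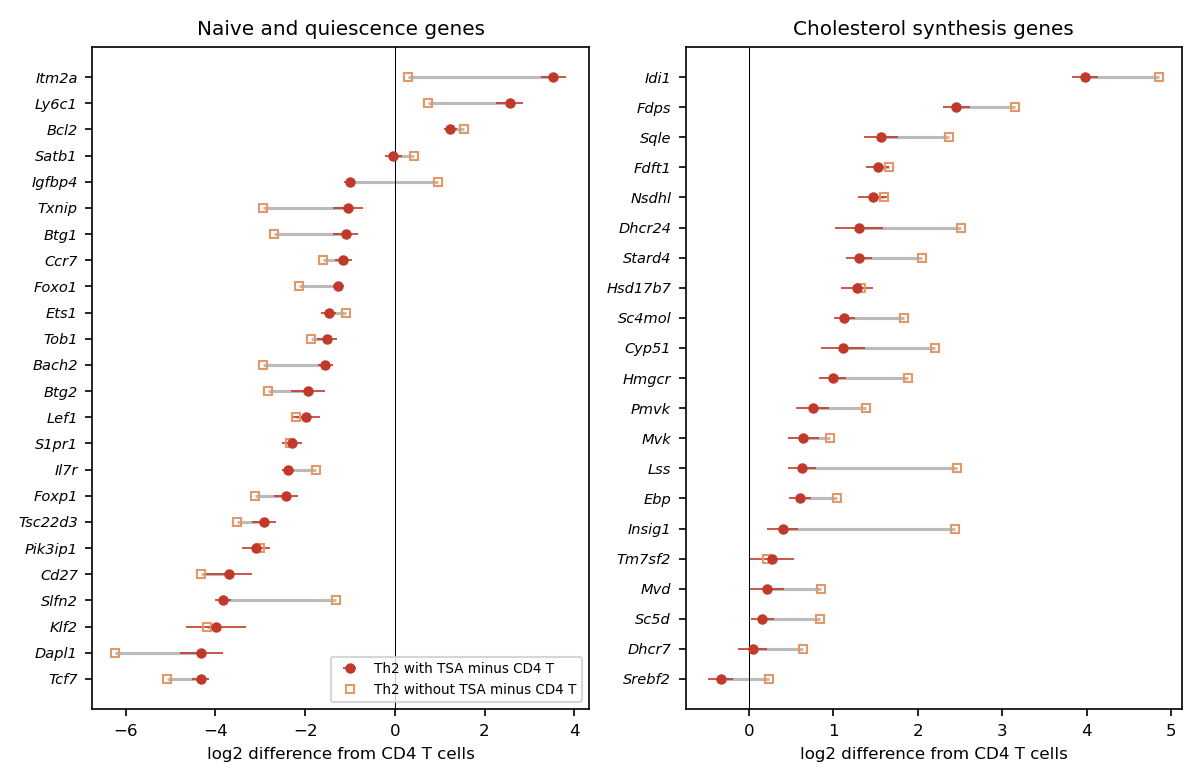
Log2 differences from CD4 T cells of naive T cell genes and cholesterol genes in TSA-treated cultures, with bars for their SE, and in untreated Th2 cultures. Some members are not drawn. Itm2a lies higher with TSA than without, and Insig1 lies lower with TSA, close to the CD4 T cell level at 0.

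Most interferon-inducible GTPase genes were higher with TSA. Of 17 tested interferon GTPases of 19, 13 rose and 1, Mx2, fell relative to CD4 T cells. Their median log2 difference was 1.39 with TSA and −0.34 without it, and 15 of 17 were higher and none lower than in untreated Th2 cultures, where 14.5% of all genes were higher. Gbp2 had 367 and 593 FPKM in TSA-treated cultures, 26.3 and 26.7 FPKM in untreated Th2 cultures and 34.1 and 33.6 FPKM in CD4 T cells. Its log2 difference was 3.75 ± 0.30 (SE), adjusted p = 0.001 from CD4 T cells and 4.09 ± 0.25 (SE), adjusted p = 0.0063 from untreated cultures, and only the TSA-treated libraries were high. Gbp5 had 92.3 and 120.1 FPKM in TSA-treated cultures, 11.2 and 12.1 FPKM in untreated Th2 cultures and 15.7 and 15.5 FPKM in CD4 T cells (log2 difference from CD4 T cells 2.68 ± 0.21 (SE), adjusted p = 0.0009). Gbp6 and Gbp10, which share exons with the gene model Gm43302 so that reads may be split among them, had log2 differences of 3.55 ± 0.14 (SE) and 4.24 ± 0.17 (SE). Gbp6, Gbp10, Igtp and Tgtp1 were called higher than in CD4 T cells without TSA as well, and Tgtp1 had 75.4 and 111 FPKM with TSA, 76.6 and 73.1 FPKM without it and 4.47 and 4.49 FPKM in CD4 T cells. Mx1, an antiviral GTPase, had 15.8 and 21.2 FPKM with TSA, 1.92 and 1.35 FPKM without it and 15.3 and 15.7 FPKM in CD4 T cells, so TSA-treated cultures stood near CD4 T cells.

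Among the other interferon-inducible genes most calls were lower than in CD4 T cells. Of 28 tested of 29, 16 fell and 6 rose, with a median log2 difference of −1.59 with TSA and −1.62 without it. Against untreated Th2 cultures 11 of the 28 were higher and 1, Oas2, was lower, where 14.5% of all genes were higher and 7.54% lower. Oas2, an antiviral sensor of double-stranded RNA, had 0.15 and 0.11 FPKM in TSA-treated cultures, 0.82 and 0.74 FPKM in untreated Th2 cultures and 33.6 and 32.8 FPKM in CD4 T cells (log2 difference with TSA −4.92 ± 0.12 (SE), adjusted p = 0.00011). Irf7, a regulator of interferon genes, had 5.75 and 7.46 FPKM with TSA, 7.31 and 8.76 FPKM without it and 81.4 and 82 FPKM in CD4 T cells. Ifit3, an antiviral protein, had 0.13 and 0.18 FPKM with TSA, 0.31 and 0.15 FPKM without it and 11.1 and 11.2 FPKM in CD4 T cells. Zbp1, a sensor of nucleic acids, went the other way with 191 and 261 FPKM in TSA-treated cultures, 38 and 38.6 FPKM in untreated Th2 cultures and 90.2 and 88.5 FPKM in CD4 T cells (log2 difference from CD4 T cells 1.31 ± 0.22 (SE), adjusted p = 0.0068).

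**Figure D4:**
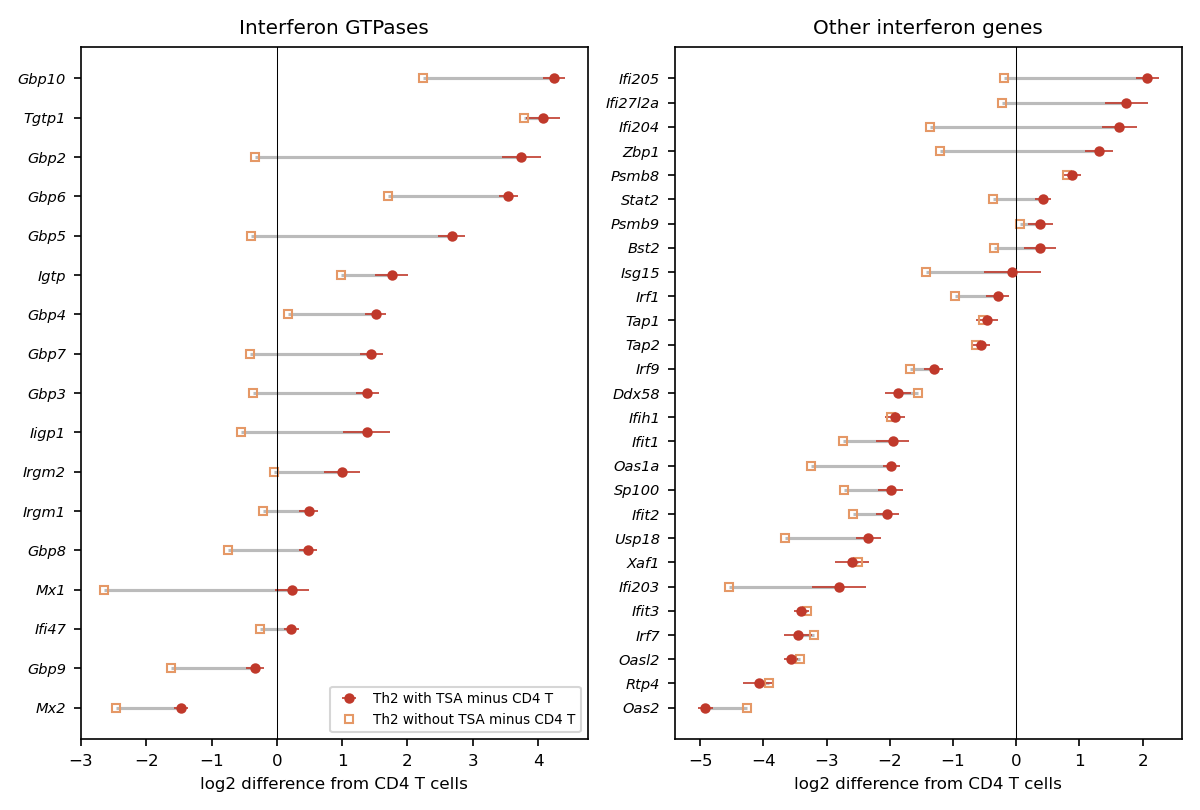
Log2 differences from CD4 T cells of interferon GTPase genes and of other interferon-inducible genes, in TSA-treated cultures with bars for their SE and in untreated Th2 cultures, with some members not drawn. Most GTPases, with Gbp2 at 3.75, lie to the right with TSA, and Oas2, Rtp4 and Irf7 lie to the left in both cultures.

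Genes of naive and resting T cells stayed low in most cases. Of 25, 20 fell, 3 rose and 2 were not called, with a median log2 difference of −1.55 with TSA and −2.33 without it. Tcf7, a transcription factor that maintains naive and memory cells, had 23.9 and 29.9 FPKM in TSA-treated cultures, 16.5 and 14.7 FPKM in untreated Th2 cultures and 553 and 560.0 FPKM in CD4 T cells. Its log2 difference was −4.33 ± 0.19 (SE), adjusted p = 0.00026 from CD4 T cells, and 0.74 ± 0.15 (SE), adjusted p = 0.036 from untreated Th2 cultures. Klf2, which directs exit from lymphoid tissue, had 5.73 and 15.7 FPKM in TSA-treated cultures, 5.68 and 11.8 FPKM in untreated Th2 cultures and 164 and 172 FPKM in CD4 T cells, and its B cell level was as high as that of CD4 T cells. Il7r, the receptor of the survival cytokine interleukin 7, had 44.6 and 39.4 FPKM with TSA, 64.3 and 67 FPKM without it and 224 and 222 FPKM in CD4 T cells. Dapl1 had 6.53 and 2.6 FPKM with TSA, 0.55 and 0.21 FPKM without it and 102 and 104 FPKM in CD4 T cells.

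Of the 25 genes 9, Tcf7 and Dapl1 among them, were higher than in untreated Th2 cultures and 3 were lower. Over all genes 14.5% were higher and 7.54% lower in this comparison. Bach2, a repressor of effector genes, had 7.5 and 6.54 FPKM with TSA, 2.03 and 2.08 FPKM without it and 22.9 and 21.9 FPKM in CD4 T cells, so TSA-treated libraries lay between the others. Itm2a, a membrane protein of developing and activated T cells, had 476 and 738 FPKM in TSA-treated cultures, 59.1 and 64 FPKM in untreated Th2 cultures and 50.3 and 50.2 FPKM in CD4 T cells. Its log2 difference was 3.53 ± 0.28 (SE), adjusted p = 0.001 from CD4 T cells and 3.25 ± 0.23 (SE), adjusted p = 0.0068 from untreated cultures, so it was high in TSA-treated libraries alone. Igfbp4, a secreted binding protein, had 86.2 and 79.1 FPKM with TSA, 331 and 324 FPKM without it and 167 and 166 FPKM in CD4 T cells, where untreated cultures lay above CD4 T cells and TSA-treated cultures below them.

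The largest falls were shared by both kinds of culture. Patl2 had 0.06 and 0.07 FPKM with TSA, 0.2 and 0.03 FPKM without it and 626 and 638 FPKM in CD4 T cells, and its gene body contains the highly expressed B2m on the opposite strand, so its reads in CD4 T cells are uncertain. Raet1a, Raet1b and Raet1c, near-identical ligands of an NK cell receptor whose reads can be split, were at most 0.45 FPKM in either TSA-treated library, against 130.5 to 166 FPKM in CD4 T cells. Olfr56 had 1.7 and 1.45 FPKM in TSA-treated cultures, against 143 and 145 FPKM in CD4 T cells, and its body contains Ifi47 and Tgtp1. The others of the 12 largest falls were Tyrobp, Lyz2, C1qc, C1qa, Vcam1, Fcna and Csf1r, genes of macrophages and other myeloid cells, whose summed marker levels are given above. Tyrobp, a signalling adaptor, had 0.74 and 0.61 FPKM in TSA-treated cultures, against 141 and 135 FPKM in CD4 T cells.

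Immediate early genes, which respond within minutes to a stimulus, were mostly lower: 14 of 20 fell and 5 rose, with a median log2 difference of −1.63 with TSA and −2.27 without it. Nr4a1, a nuclear receptor induced by T cell receptor signals, had 2.44 and 2.78 FPKM in TSA-treated cultures, 2.14 and 2.01 FPKM in untreated Th2 cultures and 68.4 and 70.2 FPKM in CD4 T cells (log2 difference with TSA −4.29 ± 0.17 (SE), adjusted p = 0.0002). Dusp1, a phosphatase of kinase pathways, had 4.81 and 6.63 FPKM with TSA, 5.32 and 7.92 FPKM without it and 78.9 and 79.6 FPKM in CD4 T cells. Atf3, a stress-responsive factor, was the largest rise of the list with 28.4 and 26.1 FPKM with TSA, 11.5 and 9.21 FPKM without it and 2.7 and 2.71 FPKM in CD4 T cells. All 8 genes of the GIMAP family, GTPases of lymphocyte survival, were called, 7 lower and Gimap7 higher. Gimap8 had 31.1 and 28.4 FPKM in TSA-treated cultures, against 216 and 215 FPKM in CD4 T cells. Of 20 chemokine receptor and homing genes 10 fell and 5 rose, where 39.0% of all genes fell and 22.3% rose. Ccr9, the receptor for homing to the gut, had 0.02 and 0.13 FPKM with TSA, 0 and 0.02 FPKM without it and 16 and 15.9 FPKM in CD4 T cells. Ccr8, a Th2 receptor, had 58.7 and 54.1 FPKM with TSA, 66.5 and 56 FPKM without it and 3.08 and 3.48 FPKM in CD4 T cells.

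Among genes past the 4-fold rule against CD4 T cells, those that TSA-treated cultures held furthest above untreated Th2 cultures were low in CD4 T cells as well. Gbp2 and Itm2a were the exceptions. The rule leaves out genes with a similar level in CD4 T cells. Uchl1, a deubiquitinase of neurons, had 42.9 and 74.8 FPKM in TSA-treated cultures, 1.23 and 1.6 FPKM in untreated Th2 cultures and 0.17 and 0.12 FPKM in CD4 T cells. Its log2 difference was 5.66 ± 0.37 (SE), adjusted p = 0.00059 from CD4 T cells and 4.58 ± 0.30 (SE), adjusted p = 0.0067 from untreated cultures. Mt3, a metallothionein known from brain, had 98.7 and 162 FPKM in TSA-treated cultures, 5.6 and 8.68 FPKM in untreated Th2 cultures and 0.09 and 0.07 FPKM in CD4 T cells (log2 difference from CD4 T cells 6.89 ± 0.40 (SE), adjusted p = 0.00045). Gstt1, a glutathione transferase, had 27.9 and 32.3 FPKM with TSA, 0.49 and 0.98 FPKM without it and 0.24 and 0.16 FPKM in CD4 T cells. Bex1, a small signalling protein of neurons, had 19.2 and 31.1 FPKM with TSA, 0.8 and 0.96 FPKM without it and 0.17 and 0.02 FPKM in CD4 T cells. Mnda, an interferon-inducible nuclear protein, had 18.6 and 15.8 FPKM with TSA, 1.12 and 0.53 FPKM without it and 0.57 and 0.5 FPKM in CD4 T cells. In each of these 5 genes both TSA-treated libraries exceeded those of untreated Th2 cultures and CD4 T cells. The choice of the genes fixed both separations, the one from CD4 T cells through the 4-fold rule. Fxyd7, a modulator of the sodium pump, had 8.82 and 43.9 FPKM with TSA, 0.11 and 0.24 FPKM without it and 1.13 and 0.79 FPKM in CD4 T cells, and its call against CD4 T cells ended without either untreated Th2 library (adjusted p = 0.0616 and 0.0625). Mt1 and Mt2, the common metallothioneins that bind zinc, were already raised without TSA, with 341 and 639 FPKM with TSA, 160.0 and 490.4 FPKM without it and 3.45 and 3.89 FPKM in CD4 T cells for Mt1 and 307 and 612 FPKM with TSA, 50.1 and 189 FPKM without it and 0.91 and 0.34 FPKM in CD4 T cells for Mt2. Of 13 tested neuronal genes of 24, 3 rose and 2 fell, and the share that rose was near that of all genes (22.3%). The largest rise of that list after Uchl1 was the synaptic vesicle gene Syp, with 9.22 and 16.2 FPKM with TSA, 0.33 and 0.54 FPKM without it and 1.36 and 1.34 FPKM in CD4 T cells.

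Among genes past the 4-fold rule against CD4 T cells, those held furthest below untreated Th2 cultures were in part lower and in part higher than in CD4 T cells. Slfn2, a Schlafen gene that maintains quiescence, had 11.5 and 14.6 FPKM in TSA-treated cultures, 80.0 and 79.2 FPKM in untreated Th2 cultures and 201 and 197 FPKM in CD4 T cells. Its log2 difference with TSA was −3.84 ± 0.18 (SE), adjusted p = 0.00029 from CD4 T cells and −2.53 ± 0.14 (SE), adjusted p = 0.0063 from untreated cultures. Slfn1, a related gene, had 11.7 and 10.2 FPKM with TSA, 45.7 and 46.9 FPKM without it and 147 and 147 FPKM in CD4 T cells. For both, TSA-treated cultures were farther from CD4 T cells than untreated cultures were. S100a4, a calcium-binding protein, had 8.62 and 9.64 FPKM with TSA, 38.9 and 30.7 FPKM without it and 109.8 and 105 FPKM in CD4 T cells. Trat1, an adaptor of the T cell receptor, had 18.1 and 10.8 FPKM with TSA, 111 and 73.5 FPKM without it and 88.9 and 81.8 FPKM in CD4 T cells, and its call against CD4 T cells ended without the second TSA-treated library (adjusted p = 0.0509). Emr1, the macrophage marker F4/80, had 0.51 and 0.39 FPKM with TSA, 6.42 and 5.66 FPKM without it and 21.1 and 22.4 FPKM in CD4 T cells. Cysltr1, a leukotriene receptor, had 9.71 and 15.4 FPKM with TSA, 37.7 and 62.7 FPKM without it and 0.42 and 0.53 FPKM in CD4 T cells, Gp49a, an immunoglobulin-like receptor, had 9.97 and 18.3 FPKM with TSA, 67.8 and 90.2 FPKM without it and 2.59 and 2.23 FPKM in CD4 T cells, and Stc2, a secreted glycoprotein, had 6.23 and 7.91 FPKM with TSA, 26.1 and 41.6 FPKM without it and 0.87 and 0.66 FPKM in CD4 T cells. These 3 were above CD4 T cells in both kinds of culture and closer to them with TSA, although the Stc2 call against CD4 T cells ended without either TSA-treated library (adjusted p = 0.0512 and 0.0645).

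Chromatin genes differed from CD4 T cells mostly by less than 4-fold. Of 17 tested histone deacetylase genes of 18, the family that TSA inhibits in part, 10 fell and 2 rose, with a median log2 difference of −0.96 with TSA and −1.08 without it. Hdac1, a nuclear deacetylase, had 108 and 113 FPKM with TSA, 79.7 and 76.4 FPKM without it and 61 and 63.4 FPKM in CD4 T cells. Hdac10 had 5.34 and 5.04 FPKM with TSA, 7.69 and 7.56 FPKM without it and 22.6 and 22 FPKM in CD4 T cells. Of 32 Polycomb genes, which keep developmental genes silent, 7 rose and 13 fell, shares near those of all genes (22.3% and 39.0%). Ezh2, the methyltransferase of dividing cells, had 166 and 133 FPKM with TSA, 135 and 109.8 FPKM without it and 28.3 and 28.4 FPKM in CD4 T cells (log2 difference with TSA 2.35 ± 0.21 (SE), adjusted p = 0.0013). Rybp, a subunit of Polycomb complex 1, had 22.9 and 23.7 FPKM with TSA, 6.7 and 6.07 FPKM without it and 3.13 and 3.13 FPKM in CD4 T cells, highest with TSA. Phf1, a partner of Polycomb complex 2, had 6.62 and 10.8 FPKM with TSA, 9.86 and 13 FPKM without it and 80.6 and 80.9 FPKM in CD4 T cells, and Cbx7, a reader of the Polycomb mark, had 22.4 and 25.1 FPKM with TSA, 14.4 and 16.2 FPKM without it and 92 and 92.7 FPKM in CD4 T cells. Of 16 tested Trithorax genes of 19, which oppose Polycomb, 9 fell and 1 rose. Kmt2c, a histone methyltransferase, had 9 and 7.54 FPKM with TSA, 5.8 and 4.37 FPKM without it and 39.3 and 39.6 FPKM in CD4 T cells. Against untreated Th2 cultures 1 of 32 Polycomb and 3 of 16 Trithorax genes were lower, where 7.54% of all genes were lower. In the same comparison 3 Polycomb and no Trithorax genes were higher, where 14.5% of all genes were higher.

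Of 19 tested genes of 20 reported to respond to deacetylase inhibitors, 7 rose and 4 fell relative to CD4 T cells. Compared with untreated Th2 cultures 6 were higher and 2 lower, where 14.5% of all genes were higher and 7.54% lower. The list was not split by the direction of the reported response. Gsn, the actin-severing protein gelsolin, had 118 and 135 FPKM in TSA-treated cultures, 38.5 and 51.8 FPKM in untreated Th2 cultures and 30.2 and 30.6 FPKM in CD4 T cells (log2 difference from CD4 T cells 2.02 ± 0.22 (SE), adjusted p = 0.0021). Ccnd1, a cyclin that overlaps another gene on the opposite strand, had 0.63 and 0.92 FPKM with TSA, 0.2 and 0.08 FPKM without it and 24.1 and 23.9 FPKM in CD4 T cells. Among 17 tested BCL2 family genes of 18, which set the threshold for cell death, 8 rose and 1 fell. Bcl2a1d, a survival member, had 29.6 and 21.9 FPKM with TSA, 4.9 and 4.24 FPKM without it and 3.19 and 3.45 FPKM in CD4 T cells, and its paralog Bcl2a1a had 19.4 and 14.6 FPKM with TSA, 3.32 and 2.6 FPKM without it and 3.12 and 3.54 FPKM in CD4 T cells. These copies are near-identical, so their separate values are uncertain. Of 18 STAT and SOCS genes 6 rose and 4 fell, where 22.3% of all genes rose and 39.0% fell. Socs2, a feedback inhibitor of cytokine signals, had 132 and 129 FPKM with TSA, 149.6 and 122 FPKM without it and 4.23 and 4.21 FPKM in CD4 T cells, and Cish, another, had 122 and 157 FPKM with TSA, 177 and 215 FPKM without it and 26.4 and 25.7 FPKM in CD4 T cells. Both were high with and without TSA.

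**Figure D5:**
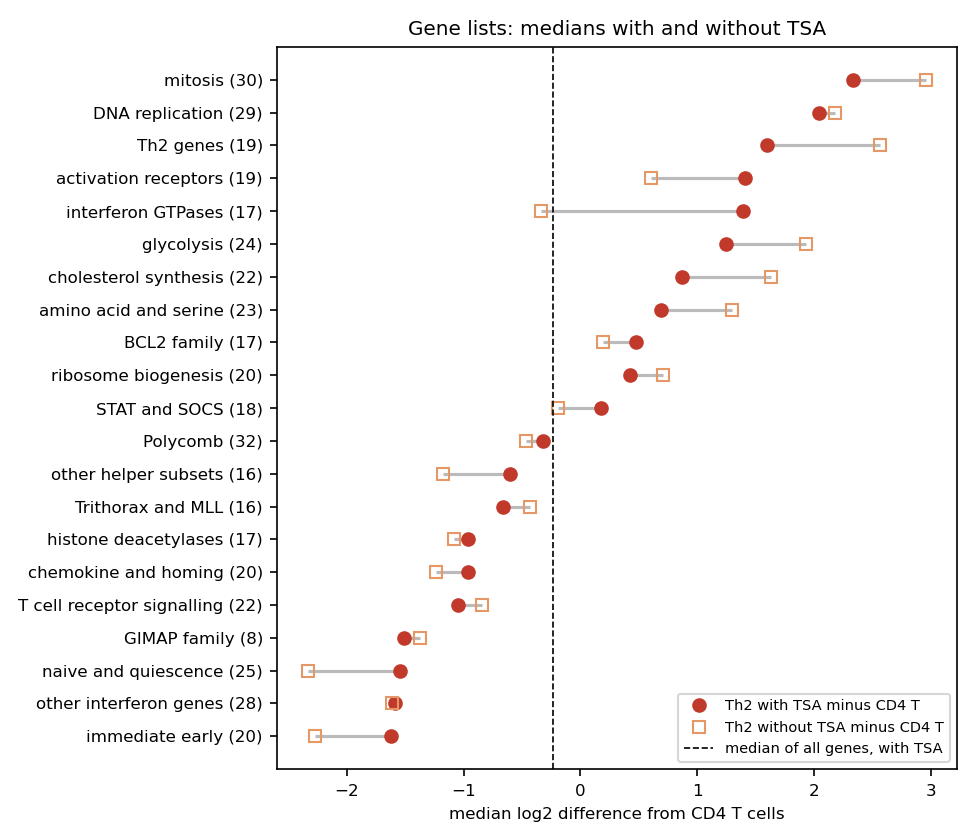
Median log2 difference from CD4 T cells of 21 gene lists in TSA-treated and in untreated Th2 cultures, with a dashed line at the median of all genes with TSA, −0.24. The mitotic list lies furthest right with TSA at 2.34 and the interferon GTPases are at 1.39 with TSA and −0.34 without it.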

How the data were processed

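RNA was measured in 10 libraries, 2 for each of 5 groups. FPKM values were deposited by the authors. Bowtie 0.12.8, TopHat 1.3.2, Cufflinks 2.0.2 and the build mm10 are named, with no order, per the submitters' processing notes. Each of the 19025 genes took the highest of its rows. Rows with no symbol (315) were left out. Genes with at least 1 FPKM in at least 2 libraries were kept (12907), less 540 at 0 in all Th2 files or in all other files. Such a 0 can be a name that was not matched: Myc was at 0 in all 4 Th2 files and had 34.9 and 34.6 FPKM in CD4 T cells, and no fold is given. Then log2(FPKM + 1) was fitted with limma 3.58.1 in R 4.3.3 (trended variance, 2 residual degrees of freedom), tested on simulated data, with p-values adjusted over 12367 genes. Genes were named as the 12 largest changes each way from CD4 T cells, up to 5 of each list and 8 fixed genes. Added to these were the 8 largest each way from untreated Th2 cultures among genes past the 4-fold rule against CD4 T cells. Others were chosen after their values were seen. The comparison, members and lists were chosen with earlier results of these data known. Alternatives were another pseudocount, filters, scaling, row summaries, 10 separate libraries, a replicate block and each library left out. Promoters are from RefSeq, GRCm38.p6. Some list members are counted but not reported here by name.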

Additional observations from a re-analysis of the deposited data

How the results depend on the processing

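Of 272 named genes with a test, 214 kept their direction and side of the threshold under every alternative and 58 did not. A pseudocount of 0.1 gave 1100 higher and 1458 lower genes past the 4-fold rule with TSA, and 669 higher and 1220 lower past it in both cultures. The median log2 difference of all genes was −0.12 with no filter on low values, −0.019 after quantile normalization and −0.026 after median-ratio scaling. With all 10 libraries kept separate, 3886 genes were higher and 2878 lower than in untreated Th2 cultures. Same-numbered TSA-treated and untreated libraries deviated together (r = 0.58 over 12907 genes), but the labels do not say that a number marks a shared batch. With the number as a replicate block, 3130 genes were higher and 2447 lower than in untreated Th2 cultures, and 3391 higher and 5693 lower than in CD4 T cells. Leaving out single libraries gave 0 to 1789 genes higher than in untreated Th2 cultures and 0 to 934 lower. The sign turned for 4 genes that were not called: Nrp1 (0.12 after quantile normalization and −0.58 to 0.0051 without single TSA-treated libraries), Havcr2 (0.17 after quantile normalization and 0.017 after median-ratio scaling), Ifi47 (−0.066 after quantile normalization) and Mzb1 (−1.68 to 0.36 without single TSA-treated libraries). The cause was not tested. Depth is unknown, so no limit from counting can be given.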

Other observations

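Families chosen by the start of their symbols after the values were seen are given here as values. Of 9 tested S100 genes of 13, which encode calcium-binding proteins, 7 rose and 2 fell relative to CD4 T cells, with a median log2 difference of 2.81 with TSA and 1.73 without it. S100a10, a partner of annexin A2, had 1915 and 2354 FPKM with TSA, 429.8 and 498 FPKM without it and 218 and 220.5 FPKM in CD4 T cells. S100a11 had 566 and 813 FPKM with TSA, 114 and 145 FPKM without it and 39.1 and 36.9 FPKM in CD4 T cells, and for both genes every TSA-treated library lay above every other library. S100a13 had 457 and 561 FPKM with TSA, 322 and 409 FPKM without it and 38.5 and 41.1 FPKM in CD4 T cells and S100a1 had 82 and 99 FPKM with TSA, 89.4 and 129 FPKM without it and 3.38 and 3.47 FPKM in CD4 T cells, so these were raised without TSA too. Of 7 tested Schlafen genes 5 fell and none rose, and Slfn5 had 2.79 and 1.78 FPKM with TSA, 0.62 and 0.36 FPKM without it and 38.8 and 38.3 FPKM in CD4 T cells.

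Of 19 tested glutathione transferase genes of 23, which join glutathione to reactive compounds, 9 rose and 4 fell relative to CD4 T cells. Mgst3 had 34.5 and 47.8 FPKM with TSA, 5.51 and 7.36 FPKM without it and 2.91 and 2.86 FPKM in CD4 T cells. Gstm5 had 5.93 and 6.02 FPKM with TSA, 1.99 and 2.07 FPKM without it and 0.19 and 0.39 FPKM in CD4 T cells. Mgst2, a membrane-bound member, was lower in TSA-treated cultures, with 40.0 and 32.4 FPKM with TSA, 74.4 and 86.9 FPKM without it and 313 and 311 FPKM in CD4 T cells. Of 19 tested genes of 22 with symbols that start like those of tubulins, 10 rose and 5 fell. They include Tubgcp2, Tubgcp3, Tubgcp4 and Tubgcp5, which encode partners of gamma-tubulin and not tubulins. Tubgcp3, Tubgcp4 and Tubgcp5 were among those that fell. Tubb2b, a tubulin known from neurons, had 15.9 and 24 FPKM with TSA, 1.18 and 1.84 FPKM without it and 1.75 and 1.71 FPKM in CD4 T cells, so the untreated Th2 and CD4 T cell libraries lay together and both TSA-treated libraries lay above them.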
